A study of Homo sapiens with 12 samples.

Results

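The genes of the voltage-gated sodium and calcium channels were followed in HD-MB03 cells, a human group 3 medulloblastoma line with an amplified MYC gene, under entinostat, an inhibitor of class I histone deacetylases. Members were the probe sets whose array annotation gives a symbol made of SCN, a number and A or B, or a symbol that starts with CACNA, CACNB or CACNG, without antisense transcripts. This gave 92 probe sets of 37 genes, 27 probe sets of 12 sodium channel genes and 65 of 25 calcium channel genes, out of 41091 probe sets of 19775 genes with a single symbol. Cells grown in RPMI medium with fetal calf serum received 1 µM entinostat (MS275 in the labels) for 24 h, the solvent DMSO for 24 h, 1 µM entinostat for 48 h or DMSO for 48 h. Each of the 4 groups had 3 biological replicates, with 1 Affymetrix U133 Plus 2.0 array per RNA sample. All groups come from this 1 cell line. RNA came from whole cultures, so less RNA per cell and fewer cells with a transcript cannot be told apart.

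Voltage-gated sodium channels open on depolarization and carry the rising phase of the action potential. A large pore-forming alpha subunit (SCN1A to SCN11A) is accompanied by small beta subunits, which set gating and surface expression and act in cell adhesion. Voltage-gated calcium channels turn depolarization into calcium entry for transmitter release, secretion, contraction and gene expression. Their pore is an alpha1 subunit of the L, P/Q, N, R or T type, and channels other than the T type carry a cytoplasmic beta subunit and an extracellular alpha2delta subunit that bring the pore to the membrane. The gamma genes encode membrane proteins of which CACNG1 belongs to the muscle channel and several others accompany AMPA receptors. The line models a tumour of cerebellar origin, and several of these genes are known from neurons of that region.

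Intensities were deposited unlogged, with array medians between 80.6 and 81.8 and a lowest value of 36.7. Comparing entinostat with DMSO, the log2 ratio of 3' to 5' control probe sets, a sign of RNA quality, had p = 0.6 (24 h) and p = 0.3 (48 h) for GAPDH and p = 1 (24 h) and p = 0.1 (48 h) for ACTB (exact permutation test, two-sided, with 0.1 the smallest p that 3 arrays against 3 allow). For ACTB at 48 h the means were -0.14 in entinostat and -0.07 in DMSO, and its part in the results at 48 h was not tested. Of the group 3 markers, MYC, OTX2, NRL, IMPG2 and GABRA5 had probe sets with a mean log2 intensity of 8 or more, and CRX and NPR3 had none. Of their 15 probe sets, 7 were lower and 0 higher at 24 h (adjusted p under 0.05 in limma), against 12.4% and 12.8% of all probe sets. At 48 h, 6 were lower and 1 higher, that of MYC, against 13.2% and 12.9% of all. No probe set of NRL or NPR3 passed at either time. The falls were strongest for IMPG2 on 241856_at (-2.02 and -1.52, adjusted p = 1.04e-06 and 9.85e-06) and GABRA5 on 206456_at (-1.78 and -2.12, adjusted p = 1.16e-08 and 2.36e-09). Summed over the 15, intensity was 22375 to 24571 in entinostat against 28375 to 31491 in DMSO at 24 h, and 27764 to 28344 in entinostat against 30950 to 33087 in DMSO at 48 h. The part of this shift in the channel falls was not tested. The markers of heart muscle, glia and fibroblasts had mean log2 intensities between 5.47 and 7.04. Of the 19 glial probe sets, 2 fell and none rose at each time, and their summed intensity lay between 1342 and 1370 in entinostat against 1409 and 1457 in DMSO at 24 h. At 48 h this sum was 1323 to 1353 in entinostat against 1444 to 1474 in DMSO.

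Most channel probe sets were dim on every array. A mean log2 intensity under 6.5 was found for 75 of the 92 (81.5%), against 55.7% of all 54613 probe sets tested. As a level for comparison, chosen after the data were seen, 107 probe sets of 82 olfactory receptor genes had a median intensity of 61.7 over the DMSO arrays, and 95% of them lay under 84.3 and the highest at 106. Intensity depends on how well each probe set binds, so this level is no detection call. Over the DMSO arrays 27 channel probe sets (18 genes) exceeded 84.3. In at least 1 of the 4 group means 34 probe sets of 20 genes did, and 17 genes exceeded it in none. That second count is looser, since the highest group mean was taken, and the receptor probe sets were not counted in that way. Those with a mean log2 intensity of 8 or more were 227623_at of CACNA2D1, 213714_at and 207776_s_at of CACNB2 and 62987_r_at of CACNG4. All 4 belong to auxiliary or gamma genes, and no probe set of a pore-forming subunit reached that level. Every value holds a background level, which makes the fold change of a dim probe set smaller than that of its mRNA.

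**Figure D1:**
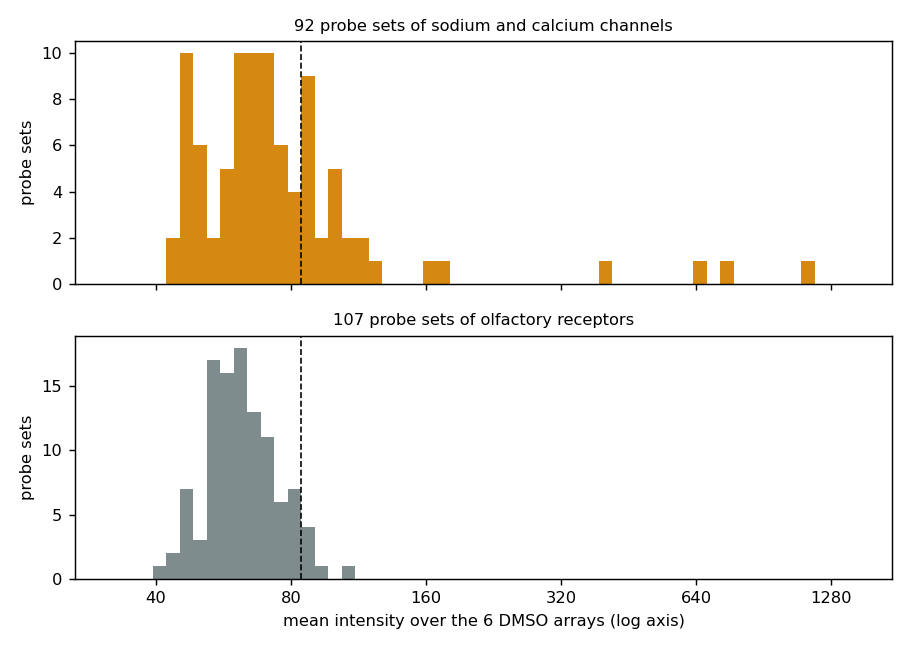
Mean intensity over the 6 DMSO arrays (log axis) of the 92 sodium and calcium channel probe sets (upper panel) and of 107 olfactory receptor probe sets (lower panel), as numbers of probe sets. The dashed line marks 84.3, under which 95% of the receptor probe sets lie, and 27 channel probe sets lie above it, 4 of them far to the right.

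At an adjusted p under 0.05 from limma, 12 of the 92 probe sets rose after 24 h of entinostat and 10 fell, where 12.8% and 12.4% of all probe sets tested did so. After 48 h, 9 rose and 13 fell, against 12.9% and 13.2% of all. The shares of channel probe sets, 13% and 10.9% at 24 h and 9.78% and 14.1% at 48 h, thus lay near those of the whole array. The median log2 fold change of the channel probe sets was -0.04 at 24 h and -0.02 at 48 h, and that of all probe sets was -0.03 and -0.02. Among dim probe sets, those with a mean log2 under 6.5, calls were rarer on the array as a whole, with 5.22% higher and 3.96% lower at 24 h and 5.38% and 3.85% at 48 h. In that class 10 of 75 channel probe sets rose and 5 fell at 24 h, and 6 rose and 8 fell at 48 h. Across both times 7 probe sets rose at both and 10 fell at both, 5 rose at 24 h alone, 2 rose at 48 h alone, 3 fell at 48 h alone and 65 passed at neither.

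By gene, 13 of the 37 had at least 1 probe set past the threshold at 24 h or 48 h. The rises belonged to the sodium channel genes SCN3A, SCN3B and SCN8A, the T-type pore gene CACNA1G, and, by less than 0.25 on the log2 scale, SCN9A, SCN1A, CACNG4 and CACNB3. The falls belonged to the auxiliary calcium channel genes CACNA2D1, CACNA2D4 and CACNB2, the sodium channel gene SCN2A, 1 of the 2 probe sets of SCN3A, and CACNA1D. A change of at least 1 on the log2 scale was reached at 24 h by 1 riser, CACNA1G (1.53% of all probe sets), and 1 faller, CACNA2D1 (0.542% of all). At 48 h it was reached by 2 risers, SCN3B and CACNA1G (1.66% of all), and 2 fallers, CACNA2D1 and CACNA2D4 (0.71% of all). The remaining 24 genes, with 52 probe sets, had log2 fold changes between -0.24 and 0.19 at 24 h and between -0.38 and 0.25 at 48 h, and their smallest adjusted p values were 0.0615 and 0.0581.

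How the called probe sets stood against the receptor level was counted next, with no test between risers and fallers. Of the 12 probe sets that rose at 24 h, 4 had a mean above 84.3 in entinostat, whereas 88.4% of all probe sets that rose on the array did. At 48 h it was 5 of 9 against 87.7%. Of those that fell, 7 of 10 at 24 h and 11 of 13 at 48 h had a DMSO mean above 84.3, against 88.9% and 90% of all that fell.

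**Figure D2:**
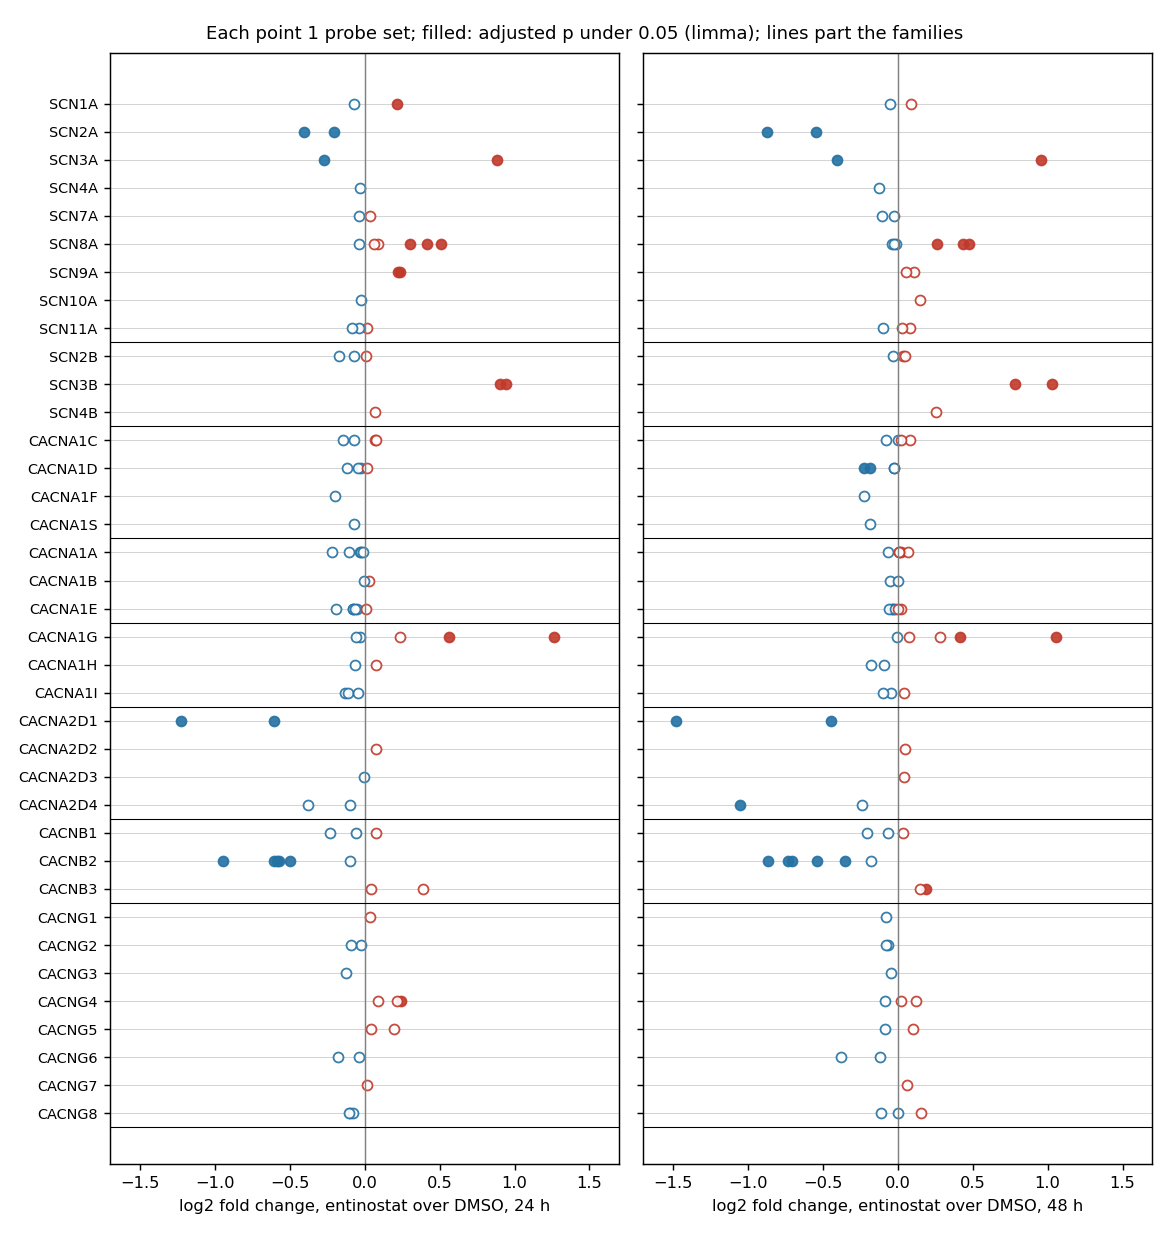
Log2 fold change of entinostat over DMSO for every one of the 92 probe sets, by gene (rows) and family (separated by lines), at 24 h (left) and 48 h (right). Filled points passed an adjusted p under 0.05 in limma, red for a rise and blue for a fall, and the filled points lie in 10 of the 37 rows at each time.

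Promoter sequence was taken from RefSeq on GRCh38.p14, which held 35 windows of 300 bases for 25 of the 37 genes, each with 250 bases before and 50 after a start site. The 4 printed here are the 250 upstream bases for the genes that have a window and at least 2 probe sets called in 1 direction at both times, CACNA2D1, CACNB2 and SCN2A among the fallers and SCN8A among the risers. Capitals mark GGGCGG (the GC box) and TATAAA on either strand, where neighbouring matches may overlap.
CACNA2D1, chr7:82443957-82444206, minus strand: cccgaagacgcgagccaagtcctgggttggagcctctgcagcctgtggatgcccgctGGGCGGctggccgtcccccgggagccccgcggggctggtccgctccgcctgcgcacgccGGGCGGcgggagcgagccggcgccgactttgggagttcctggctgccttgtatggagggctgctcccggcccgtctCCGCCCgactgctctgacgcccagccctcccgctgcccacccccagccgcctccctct
CACNB2, chr10:18140174-18140423, plus strand: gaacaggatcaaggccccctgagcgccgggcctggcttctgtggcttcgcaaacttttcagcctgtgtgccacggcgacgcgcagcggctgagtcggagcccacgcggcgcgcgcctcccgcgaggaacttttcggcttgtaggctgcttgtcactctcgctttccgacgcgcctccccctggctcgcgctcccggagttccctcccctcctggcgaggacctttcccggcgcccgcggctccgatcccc
SCN2A, chr2:165240810-165241059, plus strand: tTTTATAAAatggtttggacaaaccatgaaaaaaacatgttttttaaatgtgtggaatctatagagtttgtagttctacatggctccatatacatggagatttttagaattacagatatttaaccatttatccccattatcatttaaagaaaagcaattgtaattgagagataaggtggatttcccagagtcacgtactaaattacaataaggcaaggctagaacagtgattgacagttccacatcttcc
SCN8A, chr12:51590983-51591232, plus strand: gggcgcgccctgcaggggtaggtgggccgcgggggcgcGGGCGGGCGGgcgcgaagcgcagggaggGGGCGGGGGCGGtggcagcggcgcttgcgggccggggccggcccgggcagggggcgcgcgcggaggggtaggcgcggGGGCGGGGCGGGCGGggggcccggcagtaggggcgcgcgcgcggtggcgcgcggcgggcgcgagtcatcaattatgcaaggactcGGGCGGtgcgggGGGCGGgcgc
GC content and matches were counted over the full 300 bases of a window, including the 50 that are not printed. The window of SCN8A had a GC content of 84.0% and held 10 matches to the GC box, not all of them in the printed part. That of CACNA2D1 had 72.3% and held 3. The CACNB2 window shown is 1 of 4 for that gene, also with 72.3%, and none of the 4 holds a GC box. Its other windows had a GC content of 50.3%, 46.7% and 46.3%. The SCN2A window shown, 1 of 2, had a GC content of 33.3%, and its 2 matches to TATAAA overlap on opposite strands. The other window of SCN2A had a GC content of 31.7% and 0 matches to TATAAA. Over all 35 channel windows GGGCGG occurred in 57.1% (45.0% of 35116 windows of the genome), TATAAA in 5.71% (11.5%), and CACGTG, the E-box that MYC binds, in 5.71% (7.26%). CAGCACC and GGACAG, both parts of the element that the repressor REST binds, occurred in 8.57% (7.75%) and 28.6% (20.5%). None of the 4 windows printed holds the E-box or either REST part. Matches are letters in these windows and no measured sites.

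Among the 21 probe sets of the 9 pore-forming sodium channel genes, 7 rose and 3 fell at 24 h. At 48 h, 4 rose and 3 fell. Of all probe sets, 12.8% rose and 12.4% fell at 24 h, and 12.9% and 13.2% at 48 h. These 21 probe sets all had a mean log2 under 6.5. In that class 5.22% of all probe sets rose and 3.96% fell at 24 h, and 5.38% and 3.85% at 48 h. SCN3A encodes Nav1.3, a channel of embryonic neurons. On 210432_s_at it gave 108, 106 and 99.8 in entinostat at 24 h, against 58.0, 55.4 and 56.9 in DMSO. At 48 h the arrays gave 104, 101 and 113 in entinostat, against 64.6, 52.7 and 48.0 in DMSO. The 2 groups were apart at both times, and only the entinostat arrays exceeded 84.3. The log2 fold change was 0.88 at 24 h and 0.95 at 48 h (SE 0.09 each, adjusted p = 1.37e-05 and 6.2e-06).

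The other probe set of SCN3A, 232512_at, moved the opposite way. It gave 63.6, 68.3 and 64.1 in entinostat against 75.0, 72.7 and 89.4 in DMSO at 24 h, and 71.2, 67.6 and 77.5 in entinostat against 93.5, 97.8 and 94.8 in DMSO at 48 h. Its log2 fold change was -0.27 at 24 h (SE 0.08, adjusted p = 0.0225) and -0.40 at 48 h (SE 0.08, adjusted p = 0.00173). The call at 24 h was lost without DMSO replicate 3 (-0.18, adjusted p = 0.0877), entinostat replicate 1 (-0.25, 0.0743) or entinostat replicate 3 (-0.26, 0.0665), and that at 48 h in no such refit. A single direction for SCN3A is thus not given by the array. The SCN3A probe set that rose has a name ending in _s_at. Without the _x_at and _s_at types only 232512_at, which fell, is left for SCN3A.

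SCN2A, which encodes Nav1.2 and lies beside SCN3A in the RefSeq gene order of chromosome 2, fell on both of its probe sets at both times. On 229057_at, entinostat arrays gave 54.2, 54.7 and 57.8 at 24 h, against 74.1, 69.4 and 77.3 in DMSO. At 48 h they gave 53.6, 57.2 and 58.6, against 109, 96.9 and 105 in DMSO. The entinostat arrays stayed at one level over time, whereas DMSO was higher at 48 h. Every entinostat array lay under the median of the olfactory receptor probe sets, 61.7, so a further fall may not be readable there. The log2 fold change was -0.41 at 24 h (SE 0.06, adjusted p = 0.000379) and -0.88 at 48 h (SE 0.06, adjusted p = 6.1e-07).

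The difference between the 2 times, the interaction, was -0.47 for this probe set (SE 0.09, adjusted p = 0.0291). It was the only channel probe set past the threshold, 1 lower and 0 higher, where 0.646% and 0.562% of all probe sets passed lower and higher. At an unadjusted p under 0.05, 8 channel probe sets were lower and 2 higher. For the counts at an unadjusted p, here and below, the share of all probe sets was not taken, so no trend is read from them. The call did not hold without DMSO replicate 1 (-0.48, adjusted p = 0.0673) or 2 (-0.43, 0.0625) at 24 h, entinostat replicate 2 (-0.48, 0.0628) or 3 (-0.44, 0.075) at 24 h, DMSO replicate 1 (-0.43, 0.0669) or 3 (-0.46, 0.0747) at 48 h, or entinostat replicate 1 (-0.43, 0.0713) at 48 h.

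The second probe set of SCN2A, 206381_at, gave 68.5, 70.0 and 64.1 in entinostat against 79.7, 70.9 and 83.3 in DMSO at 24 h, and 71.3, 69.2 and 66.5 in entinostat against 97.6, 101 and 103 in DMSO at 48 h. It had the same pattern at a smaller size, with log2 fold changes of -0.20 (24 h, SE 0.07, adjusted p = 0.0366) and -0.55 (48 h, SE 0.07, adjusted p = 4.16e-05) and an interaction of -0.34 (adjusted p = 0.108). Its call at 24 h was lost without DMSO replicate 1 (-0.19, adjusted p = 0.111) or 3 (-0.16, 0.148) and without entinostat replicate 1 (-0.22, 0.0684) or 3 (-0.17, 0.132). Between the solvent controls, 48 h over 24 h, both probe sets of SCN2A were higher at 48 h, by 0.49 for 229057_at (SE 0.06, adjusted p = 0.012) and 0.37 for 206381_at (SE 0.07, adjusted p = 0.0416). These were the 2 channel probe sets higher at 48 h in DMSO (0.203% of all probe sets), and 0 were lower (0.156%, with 4 channel probe sets lower at an unadjusted p under 0.05). The interaction and the change in DMSO share the DMSO arrays.

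SCN8A encodes Nav1.6, the main channel of the axon initial segment in mature neurons, and has 6 probe sets. On 244708_at the entinostat arrays gave 69.8, 60.7 and 72.0 at 24 h against 46.4, 48.2 and 47.5 in DMSO, and 73.0, 74.8 and 67.4 at 48 h against 50.2, 54.9 and 54.4 in DMSO. Its log2 fold change was 0.51 at 24 h (SE 0.07, adjusted p = 0.000151) and 0.43 at 48 h (SE 0.07, adjusted p = 0.000485). The groups did not overlap at either time, yet every array lay under 84.3. On 235969_at entinostat gave 64.6, 55.1 and 59.9 against 43.9, 43.7 and 47.2 in DMSO at 24 h, and 56.4, 65.7 and 70.4 against 43.1, 49.4 and 45.7 in DMSO at 48 h. This probe set rose by 0.41 (SE 0.09, adjusted p = 0.00343) and 0.47 (SE 0.09, adjusted p = 0.00121).

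The other 4 probe sets of SCN8A did not rise at both times. The probe set 237790_at had 0.30 (adjusted p = 0.0176) after 24 h and -0.02 (adjusted p = 0.889) after 48 h, and 207049_at had 0.09 (adjusted p = 0.561) and 0.26 (adjusted p = 0.0434). The remaining 236329_at and 1561820_at lay between -0.04 and 0.06 and passed neither time. The call of 237790_at at 24 h was lost without DMSO replicate 1 (0.29, adjusted p = 0.0503) or 2 (0.28, 0.0587) or entinostat replicate 2 (0.22, 0.0801) or 3 (0.28, 0.0601). That of 207049_at at 48 h was lost in 9 of 12 refits, each without 1 array, with adjusted p values up to 0.144, and without DMSO replicate 3 its value was 0.14. It held only without DMSO replicate 1 at 24 h or DMSO replicate 1 or 2 at 48 h.

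Smaller rises at 24 h alone were seen for SCN9A, which encodes Nav1.7 of pain-sensing neurons, and for SCN1A, which encodes Nav1.1 of inhibitory neurons. These genes are neighbours on chromosome 2. SCN9A rose by 0.24 on 229199_at (SE 0.05, adjusted p = 0.00288) and by 0.22 on 206950_at (SE 0.07, adjusted p = 0.0321). The entinostat arrays of 229199_at gave 52.2, 51.7 and 49.4 at 24 h, against 43.0, 44.6 and 42.5 in DMSO. At 48 h its values were 46.5, 49.6 and 48.9 in entinostat against 47.4, 46.2 and 46.0 in DMSO, and the groups overlapped. SCN1A rose by 0.22 on 210383_at (SE 0.07, adjusted p = 0.0384), with 49.1, 51.7 and 56.5 in entinostat against 43.7, 48.2 and 43.6 in DMSO, and its other probe set had -0.08. At 48 h the values were 0.05 and 0.11 for SCN9A and 0.09 for 210383_at of SCN1A. All these arrays lay under the median of the olfactory receptor probe sets, 61.7. The call of 206950_at was lost without DMSO replicate 1 or 2 or any 1 of the entinostat replicates (adjusted p up to 0.106), and that of SCN1A without DMSO replicate 1 or 3 or entinostat replicate 2 or 3 (up to 0.15).

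Muscle and peripheral nerve pore genes gave little. SCN4A of skeletal muscle, SCN7A, a sodium-sensing relative, and SCN10A and SCN11A of sensory neurons had 7 probe sets together, and none passed at 24 h or 48 h. At an unadjusted p under 0.05 the 21 pore-forming probe sets gave 7 rises with 3 falls (24 h) and 4 rises with 3 falls (48 h), the same counts as after adjustment.

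Of the 3 sodium channel beta genes, SCN3B rose on both of its probe sets and SCN2B and SCN4B, with 4 probe sets, on none. SCN3B encodes beta3, an auxiliary subunit of embryonic neurons and a known p53 target. On 204722_at the entinostat arrays gave 137, 142 and 145 at 24 h, against 64.3, 78.4 and 86.0 in DMSO. At 48 h they gave 171, 170.1 and 159, against 80.6, 70.8 and 95.3 in DMSO. The means were 141 ± 3.96 in entinostat and 76.2 ± 11.0 in DMSO at 24 h, and 167 ± 6.67 in entinostat and 82.2 ± 12.3 in DMSO at 48 h (SD, n = 3 each). Every entinostat array lay above the highest DMSO array, with a log2 fold change of 0.90 (SE 0.11, adjusted p = 6.27e-05) and 1.03 (SE 0.11, adjusted p = 1.81e-05).

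On 204723_at SCN3B gave 116, 126 and 119 in entinostat against 62.1, 61.9 and 64.0 in DMSO at 24 h. At 48 h it gave 109.5, 123 and 112 in entinostat against 68.8, 61.3 and 70.1 in DMSO. The arrays were again apart, and the rise was 0.94 (SE 0.07, adjusted p = 5.26e-07) and 0.78 (SE 0.07, adjusted p = 1.94e-06). Neither probe set of SCN3B lost a call when any 1 array was left out. The interaction was 0.13 for 204722_at (adjusted p = 0.821) and -0.16 for 204723_at (adjusted p = 0.545).

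Among the 10 probe sets of T-type pore genes, 2 rose and 0 fell at each time, both of CACNA1G. This gene encodes Cav3.1, a low-threshold channel of cerebellar and thalamic neurons. Over the whole array, 12.8% rose and 12.4% fell at 24 h, and 12.9% and 13.2% at 48 h. At an unadjusted p under 0.05, 1 other T-type probe set fell at each time. On 210380_s_at CACNA1G gave 163, 198 and 149 in entinostat at 24 h, against 68.1, 72.7 and 69.9 in DMSO. At 48 h it gave 161, 179 and 116 in entinostat, against 70.3, 72.2 and 73.3 in DMSO. The DMSO arrays were tight and the entinostat arrays spread, and every entinostat array lay above every DMSO array. The log2 fold change was 1.27 at 24 h (SE 0.14, adjusted p = 1.94e-05) and 1.05 at 48 h (SE 0.14, adjusted p = 7.72e-05).

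CACNA1G also rose on 207869_s_at, where entinostat gave 71.7, 65.2 and 62.1 against 44.9, 44.9 and 44.8 in DMSO at 24 h, and 54.7, 60.2 and 65.5 against 42.5, 50.1 and 42.8 in DMSO at 48 h. The rise was 0.56 (SE 0.08, adjusted p = 0.000229) and 0.41 (SE 0.08, adjusted p = 0.00209). The other 3 probe sets of CACNA1G did not pass. Of these 211802_x_at had 0.24 (adjusted p = 0.236) and 0.28 (adjusted p = 0.147), 211314_at had -0.03 and 0.07, and 211315_s_at had -0.06 and -0.01. Both CACNA1G probe sets that rose have names ending in _s_at. Without the _x_at and _s_at types only 211314_at is left for CACNA1G, and it did not rise. CACNA1H and CACNA1I, which encode Cav3.2 and Cav3.3, had 5 probe sets with no call at either time.

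**Figure D3:**
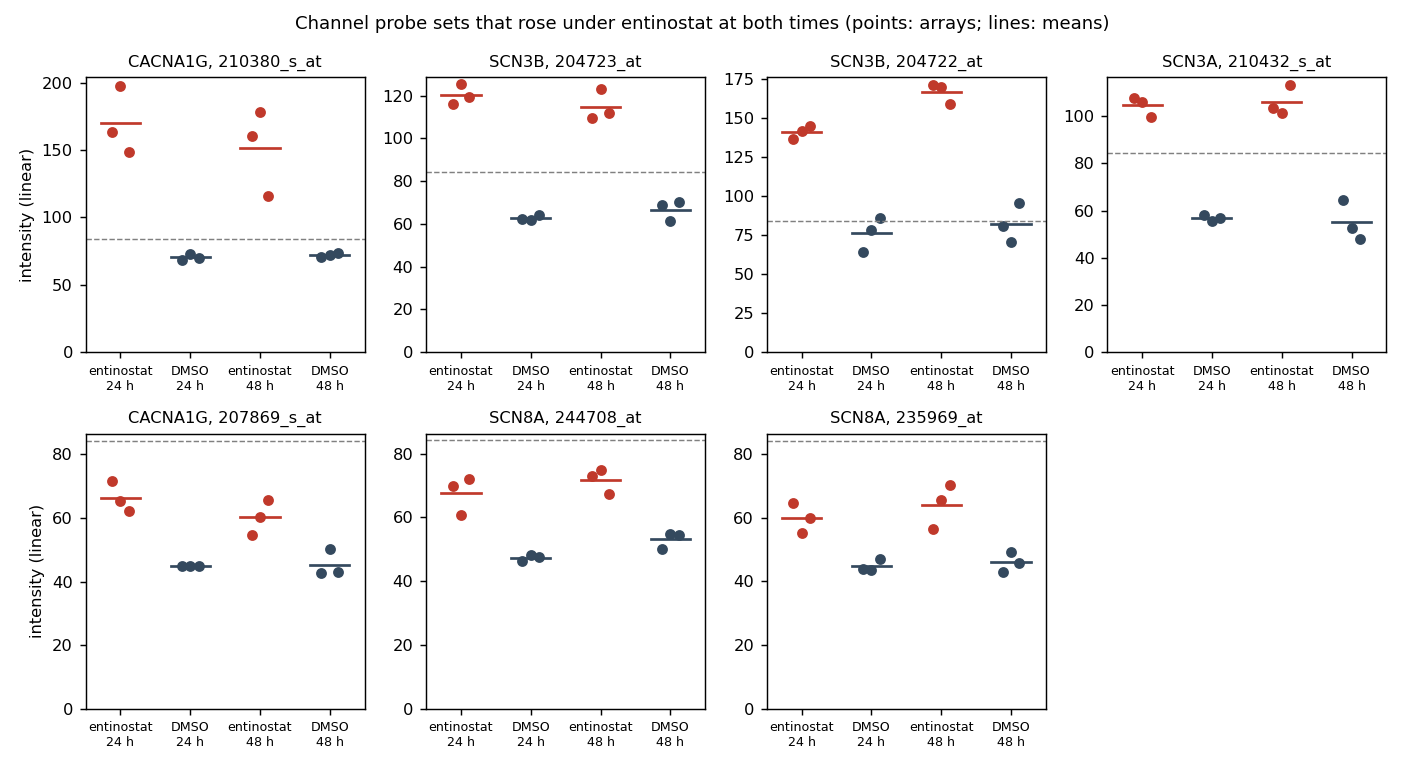
Intensity on each array (points, linear axis from 0) and group means (lines) of the 7 probe sets that rose at both times, with entinostat in red and DMSO in dark blue at 24 h and 48 h. The dashed line is 84.3, under which 95% of olfactory receptor probe sets lie. Entinostat and DMSO arrays do not overlap at either time, and those of SCN8A and of 207869_s_at of CACNA1G stay under the line.

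Few probe sets of the high-voltage pore genes passed. Every probe set of these genes had a mean log2 under 6.5, a class with few calls on the whole array. There 5.22% of all probe sets rose and 3.96% fell at 24 h, and 5.38% and 3.85% at 48 h. For the P/Q, N and R types (CACNA1A, CACNA1B and CACNA1E, the channels of transmitter release), 0 of 13 probe sets passed in limma at either time, and at an unadjusted p under 0.05 there was 1 lower at 24 h and none at 48 h. Their log2 fold changes lay between -0.22 and 0.03 at 24 h and between -0.07 and 0.07 at 48 h. Of the 10 probe sets of L-type genes (CACNA1C, CACNA1D, CACNA1F and CACNA1S, of heart, brain, retina and skeletal muscle), 0 passed at 24 h, with 1 lower at an unadjusted p under 0.05, and 2 fell at 48 h. Both belong to CACNA1D, which encodes Cav1.3. Its 1555993_at fell by 0.23 and its 210108_at by 0.19 (adjusted p = 0.0274 and 0.0144), with 48.1, 47.2 and 46.0 in entinostat against 54.8, 50.7 and 55.4 in DMSO on the second. The call of 1555993_at was lost without DMSO replicate 2 (-0.17, adjusted p = 0.117) or entinostat replicate 1 (-0.24, 0.0501) or 3 (-0.16, 0.115) at 48 h, and that of 210108_at without DMSO replicate 1 (-0.17, 0.0537) or 3 (-0.16, 0.0612) or entinostat replicate 3 (-0.17, 0.0525).

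The alpha2delta genes held the largest fall of the list. CACNA2D1 encodes alpha2delta-1, the subunit that gabapentin binds. On 227623_at the entinostat arrays gave 503, 433 and 455 at 24 h, against 996, 1032 and 1234 in DMSO. At 48 h they gave 368, 414 and 493, against 1108, 1327 and 1114 in DMSO. The means were 463 ± 35.8 in entinostat and 1088 ± 128 in DMSO at 24 h, and 425 ± 63.2 in entinostat and 1183 ± 125 in DMSO at 48 h (SD, n = 3 each). No entinostat array came near a DMSO array, and the log2 fold change was -1.23 (SE 0.12, adjusted p = 6.5e-06) and -1.48 (SE 0.12, adjusted p = 1.19e-06).

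The second probe set of CACNA2D1, 207050_at, fell as well. It gave 74.6, 72.8 and 95.1 in entinostat against 123, 126 and 118 in DMSO at 24 h, and 86.9, 75.2 and 109 in entinostat against 123, 128 and 114 in DMSO at 48 h. On the log2 scale this came to -0.60 (SE 0.12, adjusted p = 0.00296) after 24 h and -0.45 (SE 0.12, adjusted p = 0.0183) after 48 h. At 48 h the call was lost without DMSO replicate 1 (-0.43, adjusted p = 0.0532) or 2 (-0.41, 0.0643) or entinostat replicate 1 (-0.43, 0.0563) or 2 (-0.32, 0.0808).

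CACNA2D4, which encodes the alpha2delta subunit of photoreceptors, was lower at 48 h on 228083_at. Its arrays gave 57.5, 56.1 and 63.3 in entinostat against 107, 117 and 146 in DMSO, a log2 fold change of -1.05 (SE 0.15, adjusted p = 0.000193). At 24 h they gave 60.8, 63.1 and 71.7 in entinostat against 89.4, 65.2 and 103 in DMSO, and the groups overlapped, with -0.38 (SE 0.15, adjusted p = 0.0968). The difference between the times was -0.68 (adjusted p = 0.181), so that they were not shown to differ. The other probe set of CACNA2D4 had -0.10 and -0.24 (adjusted p = 0.504 and 0.0694), and CACNA2D2 and CACNA2D3 lay between 0.00 and 0.08.

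CACNB2, the beta2 subunit of heart and brain channels, fell on 5 of its 6 probe sets at both times. On 213714_at it gave 307, 279.8 and 336 in entinostat against 614, 537 and 628 in DMSO at 24 h, and 382, 389.6 and 397 in entinostat against 685, 723 and 727 in DMSO at 48 h. On the log2 scale the change was -0.95 (SE 0.08, adjusted p = 1.54e-06) and -0.87 (SE 0.08, adjusted p = 2.72e-06). Both groups were higher at 48 h than at 24 h while the gap between them held, with an interaction of 0.08 (adjusted p = 0.851). On 207776_s_at the arrays gave 239.6, 245 and 265 in entinostat against 401, 321 and 397 in DMSO at 24 h, and 280.4, 253 and 284 in entinostat against 466, 422 and 471 in DMSO at 48 h. The change here was -0.57 (SE 0.09, adjusted p = 0.000356) and -0.73 (SE 0.09, adjusted p = 4.37e-05).

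The dimmer probe sets of CACNB2 fell by like amounts. 1555098_a_at had -0.61 and -0.71 (adjusted p = 0.000135 and 3.48e-05), with 123, 102 and 109.8 in entinostat against 172, 159 and 179.9 in DMSO at 24 h. For 1559420_x_at the values were -0.50 and -0.54 (adjusted p = 0.00171 and 0.000921), and for 1559419_at -0.58 and -0.35 (adjusted p = 0.000903 and 0.0225). At 48 h the arrays of 1559419_at overlapped, and its call was lost without DMSO replicate 1 (-0.26, adjusted p = 0.0994) or 3 (-0.34, 0.0685) or entinostat replicate 1 (-0.33, 0.0684) or 2 (-0.29, 0.0927). The sixth probe set, 215365_at, had -0.10 and -0.18 (adjusted p = 0.352 and 0.0833). All 6 probe sets of CACNB2 thus had values below 0 at both times.

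No fall passed the threshold for the other beta genes. CACNB1, of skeletal muscle channels, had 3 probe sets with no call. Of these, 210185_at had -0.24 and -0.21 (adjusted p = 0.0615 and 0.101 in limma). At an unadjusted p under 0.05, 6 of the 11 beta probe sets, those of CACNB2 included, were lower and 1 higher at 24 h. At 48 h, 7 were lower and 1 higher. CACNB3, the beta3 subunit of neuronal channels, rose slightly at 48 h on 209530_at, by 0.19 (SE 0.06, adjusted p = 0.0212), with 147, 132 and 128 in entinostat against 115, 119.9 and 121 in DMSO. That call was lost without DMSO replicate 1 (0.17, adjusted p = 0.0776) or entinostat replicate 1 (0.13, 0.0882) at 48 h. For its 34726_at the values were 0.39 and 0.14 (adjusted p = 0.11 and 0.612).

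**Figure D4:**
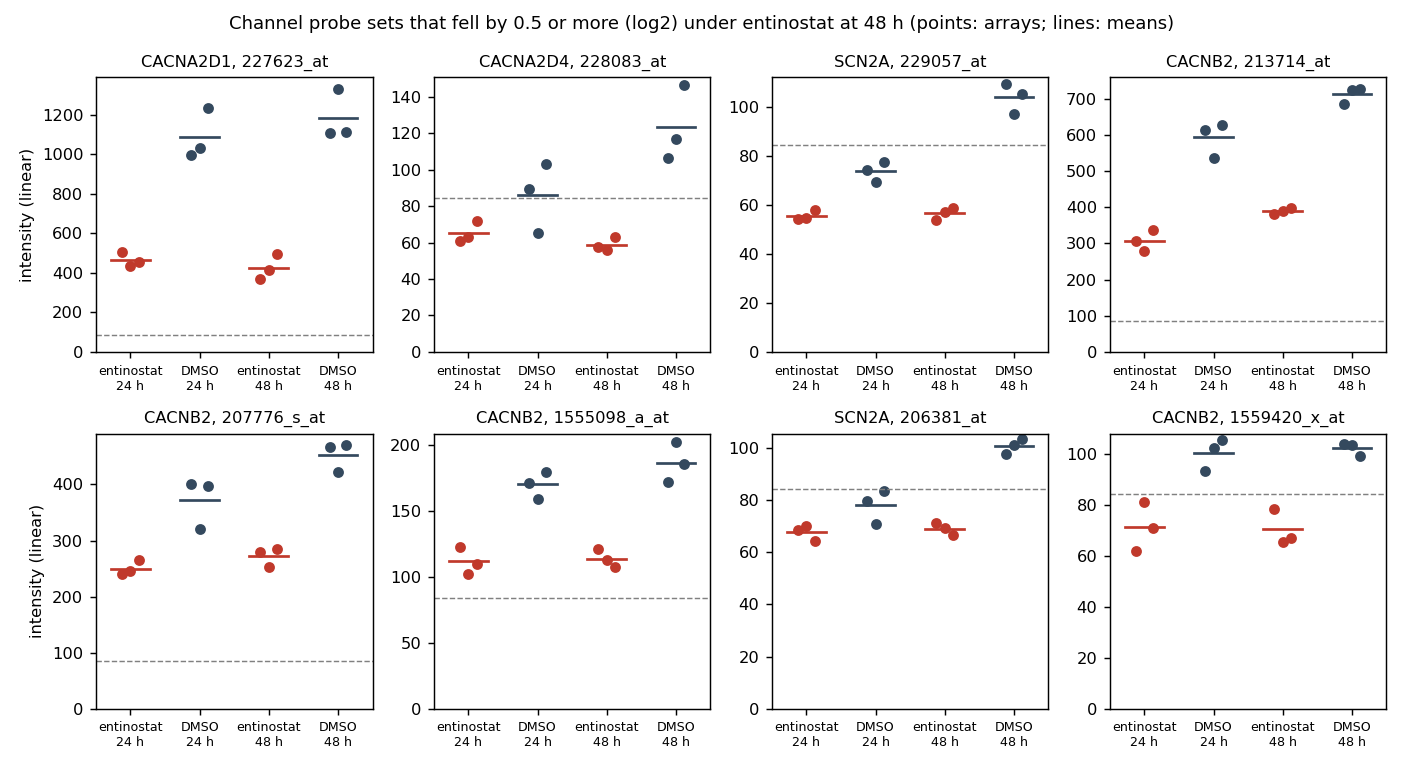
Intensity on each array (points, linear axis from 0) and group means (lines) of the 8 probe sets that fell by at least 0.5 on the log2 scale at 48 h, with entinostat in red and DMSO in dark blue at 24 h and 48 h. The dashed line is 84.3, under which 95% of olfactory receptor probe sets lie. CACNA2D1 and the CACNB2 probe sets other than 1559420_x_at stay above the line in entinostat, and in the SCN2A panels the DMSO arrays are higher at 48 h than at 24 h while the entinostat arrays are not.

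Of the 15 probe sets of the 8 gamma genes, 1 rose at 24 h and 0 at 48 h, and 0 fell at either time, with 3 higher at 24 h and none other at an unadjusted p under 0.05. The adjusted shares of all probe sets were 12.8% higher and 12.4% lower at 24 h, and 12.9% and 13.2% at 48 h. CACNG4 encodes an AMPA receptor subunit of the TARP group. Its 221585_at rose by 0.24 at 24 h (SE 0.08, adjusted p = 0.0421), with 81.4, 70.0 and 67.6 in entinostat against 61.4, 60.1 and 63.2 in DMSO. This call was lost in 9 of 12 refits without 1 array, down to 0.16 (adjusted p = 0.173) without entinostat replicate 1 at 24 h, and held only without entinostat replicate 3 at 24 h or replicate 1 or 2 at 48 h. The probe set 62987_r_at of the same gene, one of the 4 with a mean log2 of 8 or more, gave 911, 791 and 706 in entinostat against 785, 731 and 736 in DMSO at 24 h. At 48 h it gave 729, 1053 and 695 in entinostat against 745, 866 and 791 in DMSO. Its groups overlapped at both times, with 0.09 and 0.02 (SE 0.14 each, adjusted p = 0.719 and 0.939). The suffix _r marks probe sets made under relaxed design rules, and the third probe set, 231737_at, lay at an intensity of 61.7 in DMSO.

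**Figure D5:**
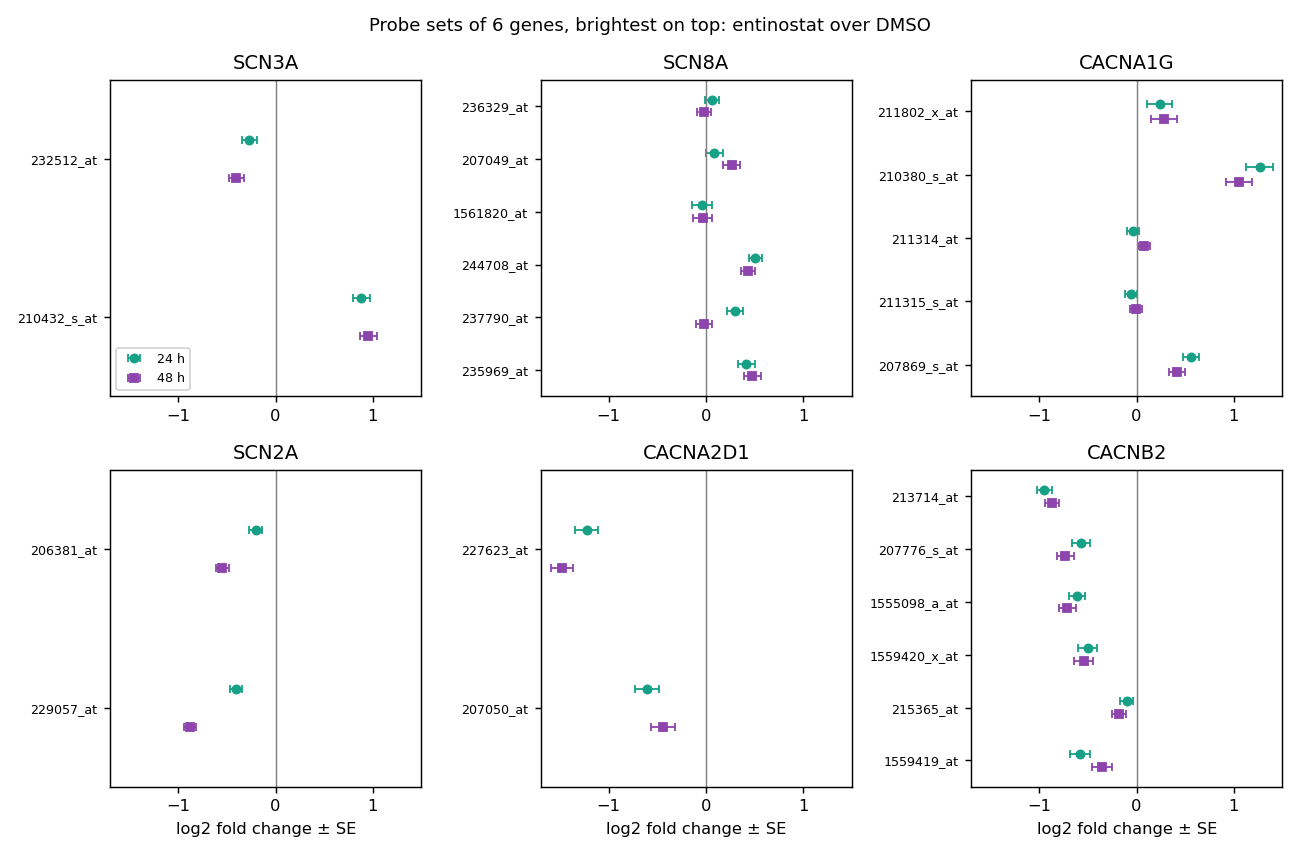
Log2 fold change of entinostat over DMSO (points) ± SE (bars, from limma) for each probe set of 6 genes at 24 h (green circles) and 48 h (purple squares). SCN2A, CACNA2D1 and CACNB2 lie left of 0 on all their probe sets, the 2 probe sets of SCN3A lie on opposite sides, and SCN8A and CACNA1G have probe sets near 0 beside those that rose.

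Skeletal muscle markers were examined because CACNA2D1, CACNB2 and SCN3B are also expressed outside neurons. MYOG, a muscle regulator known in some medulloblastomas, had mean intensities of 202 in entinostat and 421 in DMSO at 24 h, and 113 in entinostat and 291 in DMSO at 48 h, with log2 fold changes of -1.04 (adjusted p = 0.00798) and -1.36 (adjusted p = 0.00131). It was the only one of the 7 muscle probe sets to fall at either time, and CKM was the only one to rise, at 48 h (0.57, adjusted p = 0.00549). TNNI1 averaged 88.1 in entinostat and 206 in DMSO at 48 h (-1.16, adjusted p = 0.114) and 283 in entinostat and 296 in DMSO at 24 h (-0.01, adjusted p = 0.994). The sum over these probe sets was 680.4 to 1275 in entinostat against 871 to 1639 in DMSO at 24 h and 606 to 626 in entinostat against 732 to 1018 in DMSO at 48 h. DES, ACTA1, CKM and MYH3 stayed under a mean log2 of 7. Of all probe sets on the array, 12.8% rose and 12.4% fell at 24 h, and 12.9% and 13.2% at 48 h. The part of MYOG and TNNI1 in the falls of CACNA2D1 and CACNB2 was not tested.

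Partners and regulators of the channels were counted from a list of 47 symbols, of which 38 genes had probe sets. At 24 h 17 of the 102 probe sets rose and 7 fell (16.7% and 6.86%), and at 48 h 12 rose and 11 fell (11.8% and 10.8%). The shares of all probe sets were 12.8% and 12.4% at 24 h and 12.9% and 13.2% at 48 h. GEM, a small GTPase of the RGK group that binds calcium channel beta subunits and lowers channel activity, was the only gene of the list to change by at least 1 on the log2 scale. Its arrays gave 149, 233 and 101 in entinostat against 57.4, 53.9 and 52.7 in DMSO at 24 h, and 92.8, 91.9 and 79.2 in entinostat against 47.8, 53.9 and 54.3 in DMSO at 48 h. This was a rise of 1.48 (SE 0.21, adjusted p = 0.000201) and 0.76 (SE 0.21, adjusted p = 0.0181), and the times were not shown to differ (-0.72, adjusted p = 0.332). The call at 48 h was lost without DMSO replicate 1 (0.70, adjusted p = 0.0632) or entinostat replicate 1 (0.72, 0.0583) or 2 (0.72, 0.0574), and that at 24 h in no such refit. GEM was thus higher at both times while the beta subunit gene CACNB2 was lower, and a link between them was not tested.

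REST encodes a repressor that binds near many neuronal channel genes, SCN2A being the textbook case. Its 204535_s_at fell by 0.19 at 24 h (SE 0.06, adjusted p = 0.0297), with 146, 155 and 145 in entinostat against 172, 159 and 179 in DMSO, and had -0.10 at 48 h (adjusted p = 0.294). The call at 24 h was lost without DMSO replicate 1 (-0.18, adjusted p = 0.0851) or 3 (-0.15, 0.121) or entinostat replicate 1 (-0.18, 0.0925) or 3 (-0.17, 0.0926). On 212920_at it had -0.42 and -0.25 (adjusted p = 0.222 and 0.516) and on 204536_s_at -0.13 and -0.03 (adjusted p = 0.508 and 0.892), with overlapping arrays. RCOR1, the corepressor that joins REST to histone deacetylases, rose on 212612_at, with 852, 853 and 798 in entinostat against 505, 504 and 529 in DMSO at 24 h and 746, 848 and 817 in entinostat against 528, 489.6 and 539 in DMSO at 48 h. The groups were apart, and the rise was 0.70 and 0.63 (SE 0.06 each, adjusted p = 3.45e-06 and 7.64e-06). Its other probe set, 237041_x_at, had 0.04 and 0.19 and passed at neither time. RCOR1 was chosen for mention after its values were seen, beside REST, and was not alone in the partner list with a rise of this size. For example, ANK3 on 206385_s_at had 0.72 and 0.76 (adjusted p = 4.06e-06 and 2.45e-06 in limma).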

How the data were processed

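RNA of HD-MB03 cells from 4 groups (entinostat or DMSO for 24 h or 48 h, n = 3 biological replicates each, from the labels) had been measured on 12 Affymetrix U133 Plus 2.0 arrays. Intensities were deposited on a linear scale. The submitters' processing notes name GCRMA, and the methods add a log2 transformation. As the deposited values are linear, log2 was taken here, and since the lowest value is 36.7 they may come from another export than the one named. The number of arrays limits the precision, and detection calls were not used.

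After 62 control probe sets were left out, all 54613 others were fitted with limma 3.58.1 in R 4.3.3, with 1 coefficient per group over all 12 arrays. Tests were two-sided, with Benjamini-Hochberg adjustment over all probe sets and a threshold of 0.05. Contrasts were entinostat minus DMSO at 24 h and at 48 h, their difference (48 h minus 24 h, the interaction), and 48 h minus 24 h of DMSO. The probe set was the unit, and probe sets with several symbols (1801) or none (11721) named no gene. Values of all arrays were given for genes with a called change of at least 0.5 on the log2 scale or a called interaction, means for uncalled genes reaching a mean log2 of 8, and counts for the rest. Outside this rule, and with their values seen, array values were also given for smaller calls (SCN9A, SCN1A, CACNA1D, CACNB3, CACNG4, REST) and for RCOR1. From the partner list, REST and genes changed by at least 1 were named by rule, and ANK3 was named as an example beside RCOR1. Members, lists and rules were chosen with earlier results of these data known. Each count was recomputed with only probe sets of a mean log2 of 7 or more, with centred or quantile-normalized arrays, with a background of 30 subtracted, with a trended robust prior, with either time fitted alone, with the replicate number as a block, at a threshold of 0.01, with 1 probe set per gene, after removal of the _x_at and _s_at types, and without each array. Promoter windows and gene order came from RefSeq (GRCh38.p14).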

Additional observations from a re-analysis of the deposited data

Results flagged for a closer look

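SCN2A, the gene of Nav1.2, stood out because its log2 fold change differed between the 2 times on 229057_at. The log2 fold change under entinostat was -0.88 at 48 h and -0.41 at 24 h, and their difference, tested as an interaction in limma, was -0.47 (adjusted p = 0.0291). Among the channel probe sets no other passed this test. In DMSO the probe set averaged 104 at 48 h and 73.6 at 24 h, and in entinostat 56.5 at 48 h and 55.6 at 24 h. Both entinostat means lay under the median of the olfactory receptor probe sets, 61.7, so a further fall may not be readable there. The interaction is thus not separated from the rise in DMSO. The call was lost in 7 of the 12 refits that each left out 1 array, and with 30 subtracted from every value it had -0.71 (adjusted p = 0.083). The second probe set of SCN2A had -0.34 (adjusted p = 0.108).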

How the results depend on the processing

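No value of a named probe set that was past the threshold changed sign under any alternative. Only centring, quantile normalization, subtraction of 30 and leaving out an array of the contrast could change such a value. The other alternatives keep the fold change of a probe set as it is. Centred arrays, quantile normalization and another prior moved each count of channel probe sets by at most 1, and fits of each time alone gave 10 rises with 8 falls (24 h) and 8 rises with 10 falls (48 h). With only probe sets of a mean log2 of 7 or more, 6 channel probe sets were left, with 0 rises and 4 falls at each time, 0 for the interaction and 0 between the DMSO times. With 1 probe set per gene, that of the highest mean, 2 genes rose and 4 fell at 24 h, 2 rose and 6 fell at 48 h, 0 passed the interaction and 1 the DMSO times. With the probe set of the strongest effect 7 genes rose and 4 fell at 24 h, 5 rose and 6 fell at 48 h, and 1 passed between the DMSO times. That probe set was picked by its treatment effect in these same arrays, which favours calls, so these counts are no independent check. Subtracting 30 from every value gave 0 for the interaction and 1 between the DMSO times and made the called log2 fold changes larger, by a median ratio of 1.58. At a threshold of 0.01 both of these counts were 0. Without the _x_at and _s_at types, all 39 calls of the named probe sets that were left held. None of these calls is a rise of SCN3A or CACNA1G, whose rises came from _s_at probe sets only. Leaving out each array in turn gave 8 to 13 rises and 8 to 12 falls at 24 h, 8 to 9 rises and 10 to 14 falls at 48 h, 0 to 1 for the interaction and 0 to 3 between the DMSO times. Fitting each time alone lost 11 of 51 calls of named probe sets, with adjusted p between 0.0525 and 0.102. SCN8A on 207049_at lost its call at 48 h also with centred arrays (adjusted p = 0.0554), quantile normalization (0.0534), 30 subtracted (0.0532) and the block (0.0511), and SCN2A on 206381_at its call at 24 h with the block (0.0563). REST on 204535_s_at lost its call at 24 h with 30 subtracted (-0.24, adjusted p = 0.0531), with the trended prior (-0.19, 0.0514) and with 24 h fitted alone (-0.19, 0.0689).

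Replicate numbers are shared between groups and were not taken as pairs. The deviations of entinostat and DMSO arrays with the same number correlated by 0.053, 0.202 and 0.172 at 24 h. At 48 h these correlations were 0.105, 0.063 and -0.061. Arrays with unlike numbers or from different times were not compared in this way, so the correlations do not settle whether the arrays are paired. With the replicate number as a block, 12 channel probe sets rose and 11 fell at 24 h, 8 rose and 14 fell at 48 h, 1 passed the interaction and 1 the DMSO times. Over all probe sets the block gave 320 calls between the DMSO times, against 196 without it.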

Other observations

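The antisense transcripts CACNA1G-AS1 and SCN1A-AS1, which the symbols kept out of the list, were each read by 1 probe set. CACNA1G-AS1 averaged 58.0 in entinostat and 62.0 in DMSO at 24 h, and 69.8 in entinostat and 59.1 in DMSO at 48 h, with log2 fold changes of -0.09 and 0.23 (adjusted p = 0.69 and 0.242 from limma). For SCN1A-AS1 the log2 fold changes were 0.21 and 0.02 (adjusted p = 0.213 and 0.922). Neither antisense transcript passed the test, where 2 probe sets of CACNA1G rose at both times and 1 of SCN1A rose at 24 h.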
